A study of Mus musculus with 20 samples.

Results

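Early neurons that held transcripts of the transcription factor genes Tfap2a and Tfap2b were examined in the embryonic mouse habenula at E11. Single cells had been placed in the wells of 384-well plates and sequenced by CEL-Seq2, which counts the 3′ ends of transcripts with molecular identifiers. A well of the 2 E11 plates was a member, called a Tfap2 well here, when its deposited counts of Tfap2a and Tfap2b summed to at least 2. Only wells that reached 500 genes and 1000 counts, spike-in and mitochondrial counts left aside, and whose mitochondrial share was no more than 20% were considered. It found 228 wells among the 654 kept E11 wells (34.9%), 110 of 309 on plate 1 and 118 of 345 on plate 2. The whole developmental series held 3729 kept wells on 15 plates. Both E11 plates, and the E12 plate used below, came from the Brn3a-tauLacZ mouse line, in which Brn3a is the older name of Pou4f1, and their tissue label is habenula. The sources used here do not state a treatment, sort gate, sex, genotype at the reporter locus or number of embryos pooled. Nothing says that the 2 plates came from separate litters. Every p-value below measures only how the difference between groups varied between these plates, pooled largely over all genes. That spread may be technical.

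The AP-2 proteins, of which Tfap2a and Tfap2b encode a pair of close relatives, bind GC-rich palindromes as dimers and are best known from neural crest, skin and the sympathetic lineage, and from subsets of neurons in the midbrain, hindbrain, spinal cord and retina. The habenula is a paired nucleus of the dorsal diencephalon that carries signals from the forebrain to the midbrain through a single fibre tract, and its neurons are marked by Pou4f1. Other studied factors of this region include Nr4a2, an orphan nuclear receptor, and the Irx, Lhx and Zic genes. Outgrowing axons of the region are steered by receptors of the Robo, plexin, Eph and DCC families.

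The summed Tfap2 wells held 1974448 counts on plate 1 and 1681900 on plate 2, and the other kept wells 3202631 and 3213427. Median counts per well were 15986 in the Tfap2 wells and 14369 in the others on plate 1, and 12130 and 11038 on plate 2. Median mitochondrial shares were 4.83% and 4.94% on plate 1 and 5.26% and 5.21% on plate 2. Since a deeper well can reach 2 counts more easily, thinned and depth-matched wells were used as alternatives.

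The label was checked against its markers. Tfap2b (chr1:19208914-19238576, plus strand, GRCm38) was present in all 228 Tfap2 wells, and Tfap2a (chr13:40715302-40738376, minus strand) in 78 of 110 on plate 1 and 73 of 118 on plate 2. No E11 Tfap2 well held Tfap2a alone. These values chose the wells, so they are given as a description. Of the other AP-2 genes, Tfap2c had no count in the Tfap2 wells of neuronal profile on either plate, and Tfap2e reached 1.02 and 1.19 CPM there. CPM here means counts of a gene after scaling the summed wells of a group to 1000000 counts outside spike-ins. Early neurons were defined by 10 genes, among them Tubb3, Stmn2, Dcx and Elavl3, summing to at least 20 per 10000 counts of the well. By that measure 109 of the 110 Tfap2 wells of plate 1 and all 118 of plate 2 were neurons, and so were 91.5% and 96.5% of the other wells. The label of early neuron therefore held, and it was shared by most other wells of the plates.

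Markers of other cell types that use AP-2 genes were at or near 0 in the Tfap2 wells. Sox10 and Foxd3, which mark neural crest, had no count on either plate, and the 10 measured genes of cranial sensory neurons and neural crest summed to 18.2 and 29.1 CPM, against 34.4 and 29.6 CPM in the other wells. Surface ectoderm genes (8 genes, among them Epcam and Krt8) summed to 15.2 and 2.97 CPM in the Tfap2 wells, against 5.93 and 4.67 CPM in the other wells. The mesenchyme and meninges list (10 genes) summed to 8.61 and 8.92 CPM in the Tfap2 wells, against 180.8 and 4.67 CPM in the other wells. Gad1, Gad2 and Slc32a1, which define GABAergic neurons, were each at most 1.53 CPM in the Tfap2 neurons.

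**Figure D1:**
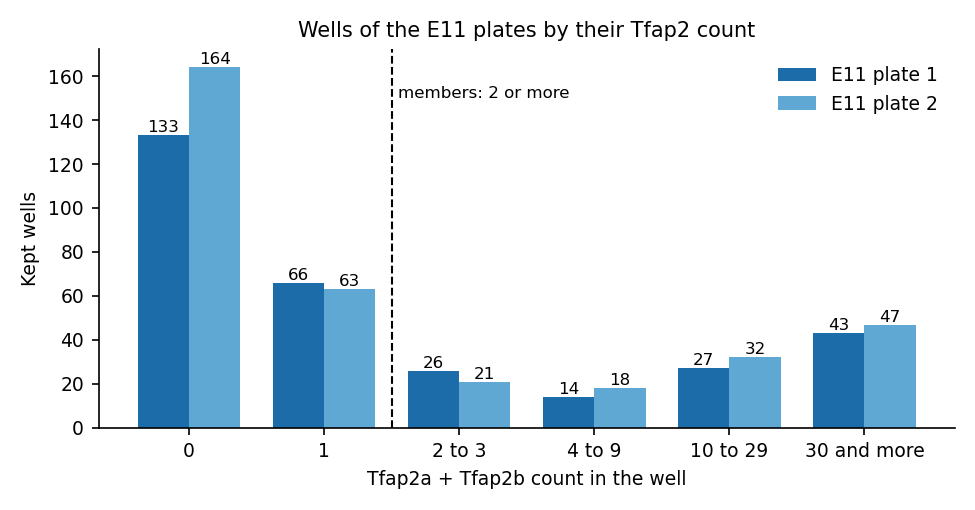
Number of kept wells on each E11 plate (y axis) by the summed Tfap2a and Tfap2b count of the well (x axis). The dashed line marks the rule: 149 of the 228 members hold 10 counts or more, and 47 lie just inside the rule with 2 or 3.

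The Tfap2 count of a well was spread widely. Of the 654 kept wells, 297 held no count and 129 held 1, while among the members 47 held 2 to 3 and 149 held 10 or more. The highest well held 129 counts on plate 1 and 118 on plate 2. Wells just inside and just outside the rule differed in either direction, depending on gene and plate. Shox2 measured 125 and 66.5 CPM in wells of 2 to 3 counts, and 151 and 169 CPM in wells of 1 count. Barhl2 measured 21.5 and 72.5 CPM in wells of 2 to 3 counts, and 22.2 and 29.2 CPM in wells of 1 count. In wells of 30 counts or more, Shox2 measured 683 CPM on plate 1 and 653 on plate 2. Robo2 went from 816 and 801 CPM in wells without a Tfap2 count to 2100 and 1933 CPM in the top class. Values below over all members are thus a mixture of wells with many and with few Tfap2 counts.

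Nr4a2 took the opposite course. It measured 142 and 184 CPM in wells without a Tfap2 count, 64.6 and 124 CPM at 2 to 3 counts, and 16.3 and 14.2 CPM at 30 or more. On the E12 plate, where the same rule was applied, Nr4a2 went from 395 to 23.2 CPM over the same classes. Reln, which encodes a secreted guidance protein of the extracellular matrix, measured 42.3 and 47.1 CPM in wells with no Tfap2 count and 239 and 201 CPM in the top class at E11, and 63.4 and 1195 CPM at E12. Pou4f1 stayed between 802 and 988 CPM up to 10 to 29 counts on the E11 plates. In the top class it measured 657 and 504 CPM, and 323 CPM at E12. These orderings follow the count that chose the wells and are given without a test.

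**Figure D2:**
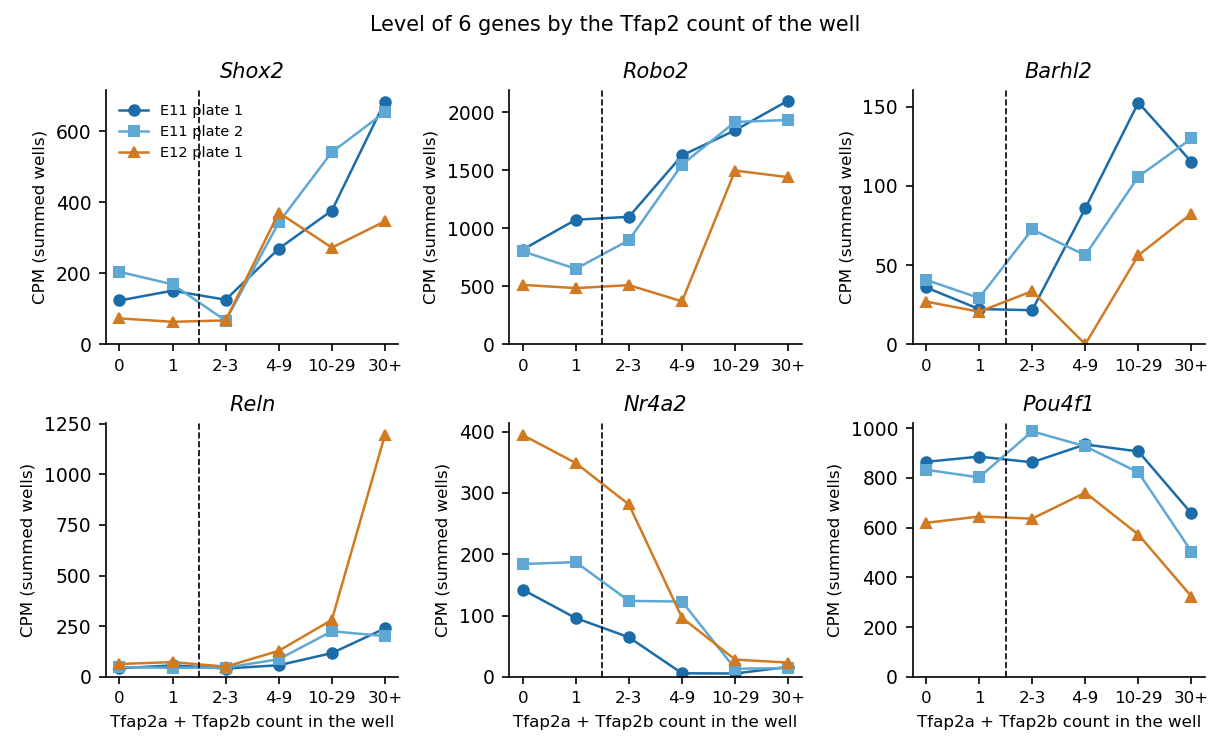
Level of 6 genes in CPM of summed wells (y axis) by the Tfap2 count of the well (x axis), on the E11 plates 1 and 2 and the E12 plate. The dashed line marks the rule; on the E11 plates Shox2, Robo2, Barhl2 and Reln lie highest in wells of 10 or more counts, and on all 3 plates Nr4a2 falls to between 5.45 and 28.1 CPM there.

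The genes given with the label besides the pair of AP-2 genes were Shox2, Robo2 and Bhlhe23. Shox2 (chr3:66971727-66981771, minus strand), a homeobox gene, measured 445 and 476 CPM in all Tfap2 wells and 133 and 193 CPM in the other wells. Robo2 (chr16:73891839-74411825, minus strand), a receptor for Slit proteins, measured 1752 and 1681 CPM against 910 and 753. Bhlhe23 (chr2:180774381-180776900, minus strand), a basic helix-loop-helix repressor, measured 164 and 189 CPM against 81.5 and 137. All 3 lay higher in the Tfap2 wells on both plates. They were chosen as markers with these data in view, so no test of them is given. Shox2, Robo2 and Bhlhe23 overlap other annotated genes, as do Tfap2a, Lhx2, Meis1, Kctd15, Kctd1, Reln, Robo1 and Plxna4, so their counts are less certain. Robo2 counts were 80.4% unspliced in the Tfap2 wells of both plates, against 8.57% and 8.23% for Tfap2b.

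The first comparison set the Tfap2 wells against all other kept wells, with counts summed per plate and the plate as a block. It asks what an E11 cell with AP-2 transcripts holds beyond these 2 genes. Of 12385 genes tested, 4.51% were higher and 4.81% lower at an adjusted p under 0.05 by edgeR's quasi-likelihood test with Benjamini-Hochberg adjustment, which left 557 higher and 596 lower without Tfap2a and Tfap2b. Progenitor and cell cycle genes were lower in the Tfap2 wells. Of 12 progenitor genes tested, 10 fell and none rose, with a median log2 difference of −1.54 against −0.0012 over all genes tested. DESeq2 did not call 7 of these 10 and gave no adjusted p for 1. Sox2, a factor of neural progenitors, measured 6.08 and 4.16 CPM in the Tfap2 wells and 32.8 and 26.1 CPM in the others. Hes5, a Notch target, measured 19.8 and 9.51 CPM against 82.8 and 76.9. Of 12 cycling genes, 8 fell and none rose, and DESeq2 called 6 of the 8. Top2a, a topoisomerase of dividing cells, measured 15.7 and 4.76 CPM against 84.0 and 39.5.

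Of the 10 early neuron genes, 7 rose and none fell in that comparison, at a median log2 difference of 0.23, and DESeq2 called 3 of the 7. As the other wells held 8.54% and 3.52% wells that were not neurons by the count above, against 0.909% and none among the Tfap2 wells, the next contrast was made among neuron wells. The splits of the Tfap2 wells by Tfap2a and by Pou4f1 further on used all Tfap2 wells.

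Against the other neuron wells of the same plates, 385 genes were higher (3.17% of 12162 tested) and 360 lower (2.96%) in the Tfap2 neurons. Without the genes that chose the wells, 377 were higher and 360 lower. Only 139 of these 737 were called by DESeq2, an alternative test, and it called no other gene. In this comparison 2 of 11 progenitor genes (Hes5 and Pax6) and 1 of 9 cycling genes tested (Top2a) were lower and none higher, and DESeq2 called Hes5 alone of these 3. The transcription factor genes Barhl2, Meis1, Meis2 and Lhx2 were higher in the Tfap2 neurons, and Nr4a2 was lower.

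Barhl2 (chr5:106452523-106458166, minus strand), a BarH-type homeobox gene of commissural and diencephalic neurons, measured 93.7 and 105 CPM in the Tfap2 neurons and 28.5 and 33.8 CPM in the other neurons. Its log2 difference was 1.68 (SE 0.14, adjusted p = 1.13e-08, edgeR). Meis1, a TALE homeobox gene, measured 100 and 115 CPM against 52.0 and 32.5, a log2 difference of 1.36 (SE 0.16, adjusted p = 2.12e-06, edgeR). For its relative Meis2 the values were 28.0 and 24.4 CPM against 5.37 and 5.79, with a log2 difference of 2.23. The groups did not overlap for any of these 3 genes, as was so for 19.0% of all genes tested in the same direction. On the E12 plate Meis2 lay the other way, at 2.00 CPM in the Tfap2 neurons and 11.2 CPM in the others, and its call was lost when that plate was added (adjusted p = 0.264, edgeR).

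Lhx2 (chr2:38339281-38369733, plus strand), a LIM homeobox gene, measured 389 and 409 CPM against 153 and 198 CPM, a log2 difference of 1.21 (SE 0.08, adjusted p = 2.93e-10, edgeR). Lhx9, its relative, measured 494 and 507 CPM against 506 and 690 and did not pass the test (log2 difference −0.23, adjusted p = 0.0745, edgeR). Lhx1 was lower, at 1.02 and 20.8 CPM against 49.0 and 32.8, but it measured 23.95 CPM against 1.67 CPM at E12. Of the 9 LIM factor genes tested, 3 rose (Lhx2, Lmo4 and Lmx1b), 1 fell and 5 did not pass. DESeq2 called neither Lmo4 nor Lhx1 and gave no adjusted p for Lmx1b. Lmx1b was also not called without the plate block or at a threshold of 1 Tfap2 count.

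Nr4a2 (chr2:57106830-57124003, minus strand) measured 25.5 and 48.2 CPM in the Tfap2 neurons and 131 and 191 CPM in the other neurons, a log2 difference of −2.13 (SE 0.13, adjusted p = 6.28e-11, edgeR). At E12 it measured 150 CPM against 392 CPM. It was the second largest fall among the named genes, after Gria1, an AMPA receptor subunit gene that measured 2.55 and 5.95 CPM against 26.5 and 21.9. Gria1 was not called in thinned or depth-matched wells, or with the E12 plate added. Of 11 habenula neuron genes tested, 3 fell, 1 rose and 7 did not pass, with a median log2 difference of −0.19. Irx2 fell by 0.54 on the log2 scale and Zic2 rose by 1.04, and DESeq2 called neither.

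Pou4f1 (chr14:104461676-104467999, minus strand), the factor that marks habenula neurons, was slightly lower in the Tfap2 neurons, at 785 and 720 CPM against 934 and 850. Its log2 difference was −0.23 (SE 0.05, adjusted p = 0.0072, edgeR), but DESeq2 did not call it (adjusted p = 1), nor did depth-matched wells or the fit without the plate block. Nearly all Tfap2 wells held it: Pou4f1 was counted at least 2 times in 101 of 110 and 99 of 118 Tfap2 wells, and in 162 of 199 and 179 of 227 of the others. Only 3 and 6 Tfap2 wells held no Pou4f1 count. Onecut genes were counted at least 2 times in 110 of 110 and 116 of 118 Tfap2 wells and in 188 of 199 and 213 of 227 others. Onecut1 and Onecut2 had log2 differences of 0.41 and 0.25, and neither was called by DESeq2.

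**Figure D3:**
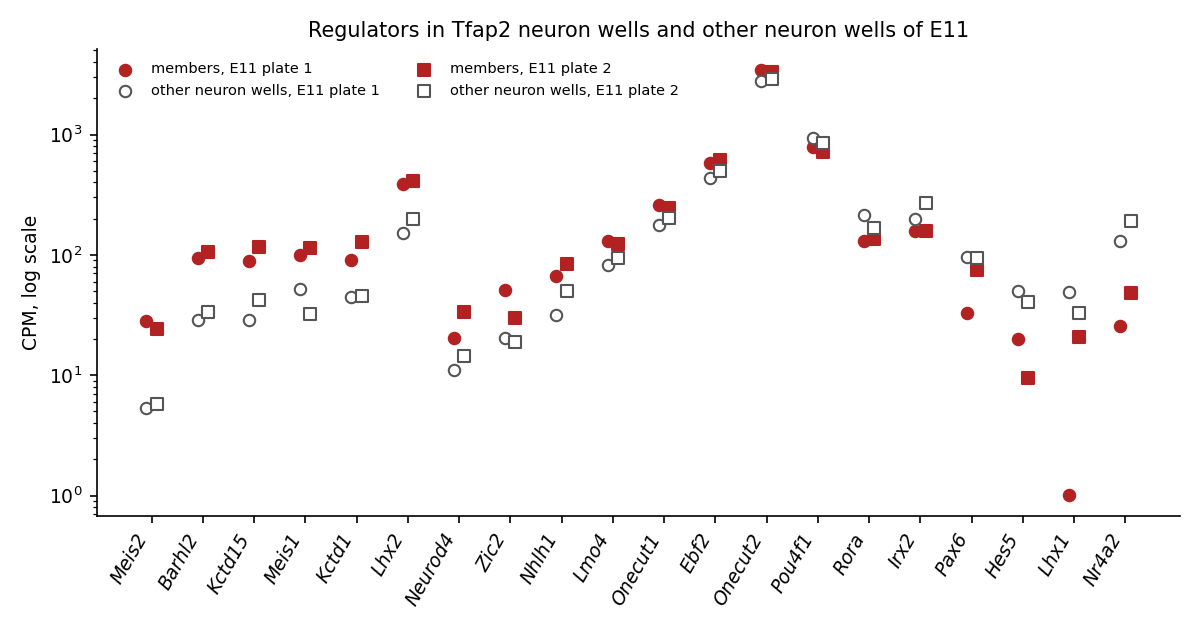
Level of 20 regulators in CPM on a log scale (y axis), each of which passed the test among neurons at E11. Filled symbols are Tfap2 neurons and open symbols other neuron wells, circles for plate 1 and squares for plate 2. Among these 20, Meis2, Barhl2 and Kctd15 lie highest above the other neurons and Nr4a2 and Lhx1 below. Lmx1b (log2 difference 2.59), which also passed, is not shown.

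Genes of the proteins known to act with AP-2 were next. Kctd15, which encodes a repressor that binds the activation domain of AP-2, measured 89.1 and 117 CPM in the Tfap2 neurons against 28.9 and 41.8 CPM (log2 difference 1.56, SE 0.14, adjusted p = 2.31e-08, edgeR). Kctd1, its relative, measured 90.1 and 127 CPM against 44.3 and 45.1 (log2 difference 1.28, adjusted p = 6.28e-07, edgeR). The groups did not overlap for either gene (19.0% of all genes tested), and both were higher in the Tfap2 neurons at E12 too, at 126 and 67.9 CPM against 39.9 and 38.5. The coactivator genes Cited2, Ep300 and Crebbp did not pass the test, with log2 differences between 0.03 and 0.13. Tfap2d, the remaining AP-2 gene at a measurable level, was at 101 and 126 CPM against 86.2 and 83.7 (log2 difference 0.43, adjusted p = 0.0293, edgeR), a call that DESeq2 and depth-matched wells did not give.

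AP-2 dimers are known to bind the palindrome GCCNNNGGC. It was searched for, on 1 strand as it equals its own reverse complement, in the 250 bases before the RefSeq starts (GRCm38.p6). With the first listed start of each gene, at least 1 match was present in 13.6% of 27025 promoters, in 21.4% of 8814 first promoters of tested genes, in 23.7% of those of 283 higher genes and in 23.1% of those of 255 lower genes. The genes that chose the wells were not taken out of these sets. The share among called genes was thus near that of all genes tested. Matches are shown for 3 genes described above, as 1 higher gene (Reln), 1 lower gene (Nr4a2) and 1 gene with 3 matches in a single window (Kctd15), with the matched letters in capitals. All windows read 5′ to 3′ on the minus strand and overlap no annotated exon. The Kctd15 window (chr7:34653099-34653182) lies before 1 of 3 listed starts, with matches from 228 to 200 bases before that start. The shares count another, the first listed start of Kctd15, which has 1 match. The windows of Reln (chr5:22344712-22344771 and chr5:22344842-22344901) hold matches 40 and 170 bases before its start, and that of Nr4a2 (chr2:57124062-57124121) holds 1 at 92 bases.
Kctd15: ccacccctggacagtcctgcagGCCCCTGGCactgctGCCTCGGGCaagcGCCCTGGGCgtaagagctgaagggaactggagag
Reln, nearer match: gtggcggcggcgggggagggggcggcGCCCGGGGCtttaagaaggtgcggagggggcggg
Reln, farther match: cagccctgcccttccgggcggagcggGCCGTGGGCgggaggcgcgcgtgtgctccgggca
Nr4a2: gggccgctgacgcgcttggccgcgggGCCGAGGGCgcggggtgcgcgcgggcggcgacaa

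No match was in the 250 bases before any listed start of Tfap2a, Tfap2b, Shox2, Robo2, Barhl2, Meis1, Bhlhe23 or Pou4f1. A match is a run of letters and not a measured site.

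Reln itself (chr5:21884454-22344702, minus strand) measured 150 and 162 CPM in the Tfap2 neurons and 50.3 and 48.0 CPM in the other neurons, a log2 difference of 1.68 (SE 0.12, adjusted p = 4.99e-10, edgeR). At E12 it measured 523 CPM against 68.6 CPM. Among other genes of Cajal-Retzius cells, a Reln-rich cortical cell type, Cxcr4 (18.3 and 24.98 CPM against 7.05 and 5.47) and Ebf2 (579 and 608 against 433 and 497) rose and Lhx1 fell. Neither rise was called by DESeq2. Trp73 and Ndnf, both used to define Cajal-Retzius cells, were at most 0.509 CPM in the Tfap2 neurons.

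Axon guidance receptors moved in both directions. Of 8 Robo and Slit genes tested besides Robo2, 2 were higher (Slit1 and the effector Srgap1) and 3 lower (Robo1, Robo3 and Slit2). Robo1, the other main Slit receptor, measured 3227 and 2916 CPM in the Tfap2 neurons and 4524 and 3924 CPM in the other neurons, a log2 difference of −0.44 (SE 0.04, adjusted p = 1.01e-08, edgeR). Among the ligands, Slit1 measured 140 and 134 CPM against 68.8 and 55.0 (log2 difference 1.16) and Slit2 measured 497 and 426 CPM against 747 and 588 (log2 difference −0.51). At E12 these genes lay on the same sides, with Robo1 at 3845 against 4261 CPM, Slit1 at 107 against 56.3 and Slit2 at 574 against 701. Robo3, a divergent receptor of commissural axons, was at 8.15 and 13.7 CPM against 29.9 and 24.5 at E11, and at 80.8 against 54.9 CPM at E12. DESeq2 called neither Robo3 nor Srgap1.

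Of 26 further guidance and adhesion receptors tested, 6 rose, 7 fell and 13 did not pass, with a median log2 difference of −0.10. The largest rise was in Plxna4, a class 3 semaphorin co-receptor, at 65.7 and 131 CPM against 23.5 and 25.1 (log2 difference 2.00, SE 0.17, adjusted p = 2.22e-08, edgeR). Among adhesion genes of the immunoglobulin class, Cntn2 measured 300 and 365 CPM against 155 and 192 (log2 difference 0.95) and Nrcam 326 and 356 against 228 and 210 (0.65). L1cam and Ncam1 rose by 0.52 and 0.20 on the log2 scale and were not called by DESeq2. Chl1, of the same class, went the other way, at 9.17 and 8.92 CPM against 30.5 and 35.1 (log2 difference −1.83). Epha7, Ephb1, Flrt2, Plxnc1, Unc5b and Epha3 fell by 0.37 to 1.00 on the log2 scale, and DESeq2 called none of these 6. At E12 Epha3 lay the other way, at 211 CPM against 37.6. Dcc, the netrin receptor, measured 3420 and 3299 CPM against 4040 and 3385 and did not pass.

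**Figure D4:**
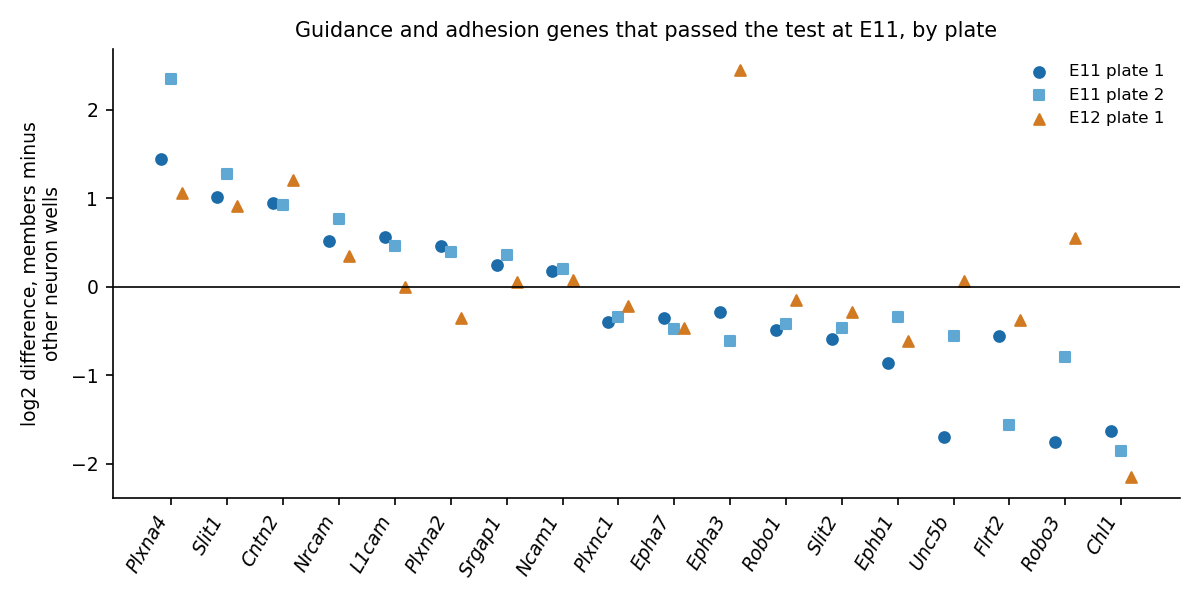
Difference between Tfap2 neurons and other neurons on the log2 scale (y axis) for the 18 guidance and adhesion genes other than Robo2 that passed the test at E11, by plate. Circles and squares are the E11 plates and triangles the E12 plate, which did not enter the test; Plxna4, Slit1 and Cntn2 are above 0 on all 3 plates, Epha3, Robo3, Unc5b and Plxna2 change side at E12, and L1cam lies near 0 there.

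Rises were next ranked by size among genes of at least 20 CPM in the higher group, which leaves out Lmx1b (log2 difference 2.59). Hs3st3b1, a heparan sulfate 3-O-sulfotransferase gene, measured 40.2 and 25.6 CPM against 2.01 and 6.76 (log2 difference 2.90, SE 0.36, adjusted p = 5.63e-06, edgeR; not called by DESeq2). Hs6st3, a 6-O-sulfotransferase gene, measured 39.7 and 61.3 CPM against 14.1 and 8.05 (log2 difference 2.19). Galnt18, which encodes a transferase of mucin-type glycans, measured 17.3 and 23.8 CPM against 3.02 and 3.54 (2.64). Other large rises were in Arpp21 (log2 difference 2.67), Kcna4, a voltage-gated potassium channel gene (2.63), Ntng2, a netrin-G gene (2.22), Sertad4 (2.06), Mab21l1 (2.04), Grin2b, an NMDA receptor subunit gene (1.95), and Rgs6 (1.87, not called by DESeq2). Mab21l1 measured 58.6 and 76.7 CPM against 10.7 and 22.9. With Meis2 and Plxna4 these complete the 12 largest rises at that level or above.

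After Gria1 and Nr4a2, the largest falls included Vstm2b, Lhx1, Cdh18, Gucy1b1, Dmrtb1, Chl1, Oprm1, Cbln4 and Cbln2, with log2 differences from −2.03 to −1.72. Dmrtb1, a DM-domain factor gene, measured 14.8 and 16.7 CPM against 54.7 and 59.5. Cdh18, a cadherin gene, measured 11.2 and 11.9 CPM against 45.0 and 40.6. Cbln2 and Cbln4, which encode secreted synapse organisers, measured 9.67 and 10.1 against 28.9 and 37.7 CPM, and 8.66 and 4.16 against 18.8 and 26.4. Oprm1, the mu opioid receptor gene of the habenula, measured 6.62 and 7.73 CPM against 24.8 and 25.8. DESeq2 did not call Vstm2b, Lhx1, Gucy1b1, Oprm1, Cbln4 or Cbln2.

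Transmitter genes followed. Slc17a6, the vesicular glutamate transporter gene of habenula and thalamus, measured 249 and 253 CPM in the Tfap2 neurons against 155 and 173 (log2 difference 0.63, SE 0.08, adjusted p = 1.46e-05, edgeR; 0.0559 by DESeq2). Among neurogenic basic helix-loop-helix genes, Nhlh1 (66.2 and 83.3 CPM against 31.9 and 50.5) and Neurod4 (20.4 and 33.3 against 11.1 and 14.5) rose, and 8 of 11 tested besides Bhlhe23 did not pass. DESeq2 called neither Nhlh1 nor Neurod4. Of 7 thalamus genes tested, 1 rose (Lhx2), 1 fell (Rora, log2 difference −0.52) and 5 did not pass, with a median log2 difference of 0.06. Rora, a nuclear receptor gene, measured 129.8 and 136 CPM against 216 and 168, was not called by DESeq2 and lay the other way at E12, at 93.8 against 49.9 CPM. Tcf7l2 measured 3866 and 4454 CPM against 3949 and 4091. Of 12 pretectum and midbrain genes tested besides Shox2, 5 rose (Barhl2, Ebf2, Meis1, Meis2 and Otx2), 1 fell (Lhx1) and 6 did not pass, with a median log2 difference of 0.33. DESeq2 called Barhl2, Meis1 and Meis2 of this list.

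Of 8 retinoid genes tested, 2 rose (Crabp1 and Rarb) and 6 did not pass. Rarb, a retinoic acid receptor gene, measured 13.2 and 12.5 CPM against 5.03 and 5.79 (log2 difference 1.26), and DESeq2 did not call it. Crabp1, a retinoic acid binding protein gene, was at 5164 and 4679 CPM against 4382 and 2366 (log2 difference 0.62), which neither DESeq2 nor the fit without the plate block called. By Tfap2 class, Crabp1 was highest in wells of 4 to 9 counts (9016 and 7057 CPM) and measured 3830 and 3360 CPM in wells of 30 or more. Of the immediate early and heat shock genes, which can rise during dissociation, Hsp90aa1 measured 709 and 687 CPM against 649 and 628, and Fos 41.8 and 51.7 CPM against 24.8 and 48.0. Neither passed the test (adjusted p = 0.172 and 0.244, edgeR).

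The E12 plate was not used by the rule and gave a second look at these genes. There 58 of 291 kept wells met the same rule. Of the 367 genes higher at E11 with at least 10 counts at E12, 296 (80.7%) were higher at E12, and 293 of 358 lower genes (81.8%) were lower. Among genes not called at E11, 53.6% of the higher and 56.4% of the lower kept their side. With 1 plate there is no test of these values. Shox2, Robo2 and Bhlhe23 measured 217, 975 and 126 CPM in the E12 Tfap2 neurons and 71.4, 515 and 40.7 CPM in the other E12 neurons. Of the 24 genes ranked as the largest rises and falls above, 21 lay on the same side.

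The Tfap2 wells also varied among themselves. Members with Tfap2a (78 and 73 wells) were set against members without it (32 and 45 wells), and 0.569% of 9484 genes were higher and 0.601% lower by edgeR's test, which left 52 higher and 57 lower without Tfap2a and Tfap2b. Wells with Tfap2a also held more Tfap2b, at 2182 and 2151 CPM against 377 and 1250. Shox2 measured 551 and 595 CPM with Tfap2a and 191 and 267 CPM without it, and Reln 185 and 191 against 63.6 and 112. Hs3st5, a further heparan sulfate sulfotransferase gene, measured 85.5 and 97.0 CPM against 18.9 and 18.0. Wells without Tfap2a had more Uncx, a homeobox gene (96.3 and 116 CPM against 23.0 and 19.6), more Gpc6, a glypican gene (483 and 259 against 87.6 and 84.9), and more Nr4a2 (48.1 and 90.2 against 16.5 and 24.3). Among members of at least 10 counts, a restriction chosen after seeing the data, 14 genes were called, 6 of them among the 109 called over all members. Only 5 and 18 wells without Tfap2a remained there. Reln, Uncx and Gpc6 were not called under that restriction, with log2 differences of 0.54, −1.19 and −0.40 against 1.12, −2.29 and −2.08 over all members. Hs3st5 was called in both (2.94 and 2.30). The log2 difference of Shox2, given without a test, was 0.41 under the restriction against 1.34 over all members.

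The split by Pou4f1 rested on 9 wells without it. Of 8995 genes tested by edgeR, 0.0778% were higher and 0.0111% lower with Pou4f1 after adjustment, which left 6 and 1 without Pou4f1 itself, and 344 (3.82%) had an unadjusted p under 0.05. Robo2 measured 1789 and 1770 CPM with Pou4f1 and 347 and 162 CPM without it, and the neurofilament gene Nefm 985 and 1250 CPM against 139 and 162. Dmrta2, a DM-domain factor gene of early forebrain, was higher without Pou4f1, at 139 and 444 CPM against 21.2 and 2.76. In the wells without Pou4f1 these values rest on few counts, 5 and 8 of Robo2, 2 and 8 of Nefm and 2 and 22 of Dmrta2. Other markers moved with this split, in which the median log2 difference over all genes tested was 0.42, higher with Pou4f1. The 10 early neuron genes summed to 8892 and 12423 CPM in the wells without Pou4f1 and to 20986 and 21485 CPM in those with it. The cycling list summed to 486 and 323 CPM against 112 and 67.7, and the surface ectoderm list to 1250.4 and 0 CPM against 6.35 and 3.45. The part of these markers in the differences was not tested. The wells without Pou4f1 held 14400 and 49533 counts in all, and no gene was called when wells were thinned to 5000 counts, which left 1 and 4 of them.

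Across all kept E11 wells, the genes most like Tfap2b in log2(CPM + 1) were named by their Pearson correlation, averaged over the 2 plates, as a description. The points share library and depth. After Tfap2a (r = 0.65) came Shox2 (0.41), Mab21l1 (0.41), Reln (0.38), Barhl2 (0.35), Meis1 (0.35), Kctd15 (0.35), Gm30382 (0.34), Lhx2 (0.33) and Ntng2 (0.33), among 7725 genes. Within the 149 members of at least 10 counts, the order was another, and the genes most like Tfap2b included Pbx3 (0.57), a TALE homeobox gene, Lhx2 (0.51), Pou3f2 (0.45) and Cntn2 (0.43). The lowest there were Grik1 (−0.57), Cacna2d3 (−0.55), Lingo2 (−0.48) and Crabp1 (−0.47).

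Wells that meet the rule were frequent at E11 to E13 and rare later. They made up 35.6% and 34.2% of kept wells at E11, 19.9% at E12, and 7.84% and 21.9% at E13. It was 0 of 188 and 0 of 302 wells at E15, which allows up to 1.60% and 0.993% when 3 wells of the total are taken as the limit, and 1.94% and 1.21% by the exact binomial interval. On the 8 later plates of the series it was at most 0.621%. After thinning each well to 3000 counts the shares were 25.8%, 26.4%, 12.0%, 4.92% and 9.52% at E11 to E13, and at most 0.329% on later plates of the series. No well held 10 Tfap2 counts or more from E15 on. The 95% exact binomial intervals of all kept wells were 30.3 to 41.2% and 29.2 to 39.5% at E11 and 15.5 to 24.99% at E12. At E13 they were 4.12 to 13.3% and 15.3 to 29.8%, so the 2 E13 plates differed beyond them. After thinning, the E13 intervals were 1.83 to 10.4% and 5.02 to 16.0%, which overlapped. Intervals and limits cover counting error only and not the spread between plates, and stage and sequencing run cannot be told apart.

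**Figure D5:**
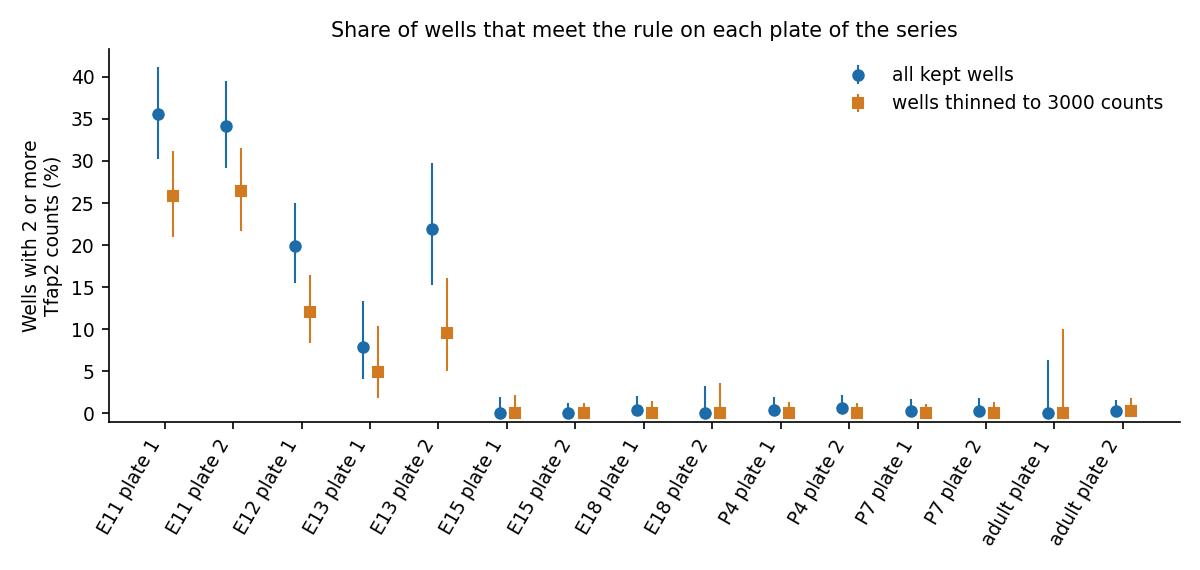
Share of kept wells with at least 2 Tfap2 counts (y axis, percent) on each plate of the series, in all kept wells (circles) and after thinning to 3000 counts (squares), with 95% exact binomial intervals. The share falls from 35.6% and 34.2% at E11 to 0 on both E15 plates.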

How the data were processed

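CEL-Seq2 libraries of single cells of mouse habenula were used, with the plate as replicate. Reads were processed with STAR 2.5.3a for mm10, per the submitters' processing notes; the sources used here name no counting program and no use of strand, so overlapping genes are uncertain. The authors deposited tables of expected counts per gene and well, unscaled, in which each value is a molecular identifier count corrected for collisions: inverting the correction for 4096 identifiers gave whole numbers (tolerance 1e-06) for 100% of values, against 46.1% as deposited. Whole counts had been planned for; sums were therefore rounded. The unspliced table served for shares only, and 4605 of its columns were not used.

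The members, gene lists and markers were chosen with earlier results of these data known. Counts of members and of other wells were summed per plate. edgeR 4.0.16 (filterByExpr, TMM, quasi-likelihood F test, plate as block; R 4.3.3) was run over all genes, with Benjamini-Hochberg adjustment at 0.05. The 4 sums leave 1 residual degree of freedom, so the spread rests largely on all genes together. The SE given with a log2 difference was derived as its absolute value divided by the square root of the F value of the test. The plate pairs the sums because both come from it; deviations of the 2 groups correlated at r = 0.26 over 7365 genes. Differences by plate are log2 ratios of CPM with a pseudocount of 1. Named genes are the 12 largest rises and falls that passed on both plates in the same direction with at least 20 CPM in the higher group, and listed genes; a few of them are not reported here. Alternatives were DESeq2 1.42.0, no block, library totals, no low-count filter, recovered identifiers, thinned and depth-matched wells, other thresholds, other well filters, wells above 3 times the plate median left out (no doublet caller was run), and the E12 plate added. The tests were tried on simulated sums. Among neurons, 94 of 100 genes changed by 1 on the log2 scale were recovered with 12 false calls in 11909 genes, and with and without Pou4f1 0 of 100. The simulated sums followed the count model of the test, had no plate effect and took their spread from these same data. Changed genes were drawn only from those above 20 CPM. The simulation therefore does not measure the error rate on the real counts. Of 37994 gene IDs, 37952 were in GENCODE M21 (GRCm38). Both E11 plates use 1 barcode set, so 383 well numbers are common to them.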

Additional observations from a re-analysis of the deposited data

Results flagged for a closer look

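For 14 genes, ranked among the largest rises and falls or called from a list among neurons, the difference on the E12 plate lay opposite to that of both E11 plates. E12 has 1 plate, so the difference between stages was not tested. Against all other wells, Ctsc, Apoe, Selenop and C1qb, genes of macrophages and glia among others, were lower in the Tfap2 wells of both E11 plates and higher at E12, by 1.43, 2.40, 2.55 and 3.31 on the log2 scale. Apoe measured 10.6 and 2.38 CPM in the E11 Tfap2 wells against 116 and 16.8 CPM in the other wells, and 136 against 25.04 CPM at E12. On E11 plate 2, Ctsc, Selenop and C1qb rested on 0, 6 and 3 counts in the Tfap2 wells, against 19, 19 and 14 in the others. The 58 E12 Tfap2 wells include 1 that was not a neuron, with 12788 CPM over the mesenchyme and meninges list. The part of that well in these differences was not tested. Among neurons, Meis2 was higher in the Tfap2 neurons at E11 and lower at E12 (log2 difference −2.02). Lhx1 and Oprm1 were lower at E11 and higher at E12 (log2 differences 3.22 and 0.19), as were Epha3 (2.45), Rora (0.90), Robo3 (0.55) and Unc5b (0.067). Cxcr4, Plxna2 and L1cam were higher at E11 and lower at E12 (log2 differences −0.095, −0.35 and −0.0090), and the differences of Unc5b, Cxcr4 and L1cam at E12 lay close to 0. Csf1r, a macrophage receptor gene, measured 24.9 CPM in the E12 Tfap2 neurons and 1.39 CPM in the other E12 neurons, with all of the former from 1 of the 58 E12 Tfap2 wells, and its part in these values was not tested.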

How the results depend on the processing

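Among neurons, 377 genes were higher and 360 lower. The counts were 180 and 181 with no replicate block for the plate that pairs the sums, 63 and 76 with DESeq2, 221 and 227 in thinned wells, 182 and 167 in depth-matched wells, 190 and 122 at a threshold of 1 Tfap2 count and 584 and 570 at 10 (chosen after seeing the data). The counts were 229 and 259 with the E12 plate and 548 and 580 at 10 early neuron counts per 10000. Against all other wells, 557 and 596 became 184 and 188 with no replicate block, 81 and 78 with DESeq2, 258 and 245 thinned, 272 and 282 depth-matched, 217 and 171 at 1 count and 267 and 312 with the E12 plate. With and without Tfap2a, 52 and 57 became 20 and 23, 3 and 6, and 26 and 25 (no block, DESeq2, thinned), 83 and 74 with no filter, and 7 and 7 at 10 counts. With and without Pou4f1, 6 and 1 became 54 and 52 with no replicate block, 18 and 1 with DESeq2, 2 and 9 with no filter, and 0 and 0 thinned. Epha3 reversed with the E12 plate (log2 difference 0.48 among neurons, 0.34 against all wells), as did Rora (0.022 against all wells); Prph reversed at 1 count (0.044). Of 69 named or listed genes called among neurons, the label's markers left aside, 23 passed under every alternative run that gave a value, among them Barhl2, Meis1, Lhx2, Reln, Kctd15, Kctd1, Slit1, Robo1, Plxna4 and Nr4a2, and 41 did not pass with DESeq2. The cause of these changes was not tested. Leaving out 1 E11 plate leaves no residual degrees of freedom, so it gave differences and no counts of calls; no named or listed gene changed direction. Library totals moved the median of all genes by −0.015 among neurons and −0.036 against all other wells. The 9 wells without Pou4f1 limit that split.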

Other observations

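The 2 E13 plates differed in the wells that met the rule. On E13 plate 2, 6 of the 30 wells that met it were not neurons, and these 6 summed to 2569 CPM over the mesenchyme and meninges list and 3374 CPM over the cycling list, against 83.9 and 248 CPM in the 24 neurons. In those 24 neurons Tfap2b measured 356 CPM and Tfap2a 242 CPM, and Tfap2a exceeded Tfap2b in 16 wells. At E11 the neurons measured 1657 and 1823 CPM of Tfap2b and 158 and 148 CPM of Tfap2a, and Tfap2a exceeded Tfap2b in 2 and 4 wells. The 12 wells of E13 plate 1 were all neurons, with 913 CPM of Tfap2b, 184 CPM of Tfap2a, 468 CPM of Shox2 and no count of Col1a1, Col3a1, Twist1 or Foxc1. The E13 values are 1 sum each and were not tested.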
